A study of Homo sapiens with 4 samples.

Results

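The ERK pathway feedback genes are 10 genes that cells transcribe when ERK is active and whose products, for the most part, dampen it: DUSP4, DUSP5 and DUSP6, SPRY1, SPRY2 and SPRY4, SPRED1 and SPRED2, and ETV4 and ETV5. They were chosen by gene symbol, and all 10 were found among the 19381 genes of the deposited tables. Their RNA was sequenced in SK-LMS-1, a human line labelled as uterine leiomyosarcoma, a malignant tumour of smooth muscle. A pair of libraries came from cells kept for 48 h with 50 µM 2-D08, and a pair from untreated cells. 2-D08 is a flavone that blocks the attachment of the small protein SUMO to other proteins. All 4 libraries come from this single line, grown in serum-containing medium, and no vehicle is given for the untreated cells.

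ERK is the last kinase of a relay that runs from growth factor receptors through RAS, RAF and MEK. Active ERK enters the nucleus and switches on a small set of genes within hours, and many of these act back on the relay. DUSP phosphatases strip the activating phosphates from ERK, Sprouty and Spred proteins act near the receptor, RAS and RAF, and ETV4 and ETV5 are transcription factors of the ETS family. CIC, a repressor that ERK signalling inactivates, holds several of these genes silent. Their transcripts are therefore widely read as a record of ERK output, although other pathways can also act on them.

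In treated cells 8 of the 10 genes rose and 0 fell. The rises ran from 1.25-fold for ETV5 to 2.67-fold for SPRY4, and SPRY1 and SPRED2 did not pass the test. Across all 12906 genes tested with edgeR's quasi-likelihood test, 17.1% were called higher and 16.9% lower at an adjusted p under 0.05. No gene of the list was lower at an unadjusted p under 0.05 either, with edgeR, DESeq2 or limma (0 in each). The median log2 fold change of the 10 genes was 0.86, against -0.0033 for all genes tested. In 9 of the 10 genes both treated libraries lay above both untreated ones, which was so for 33.8% of genes tested.

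**Figure D1:**
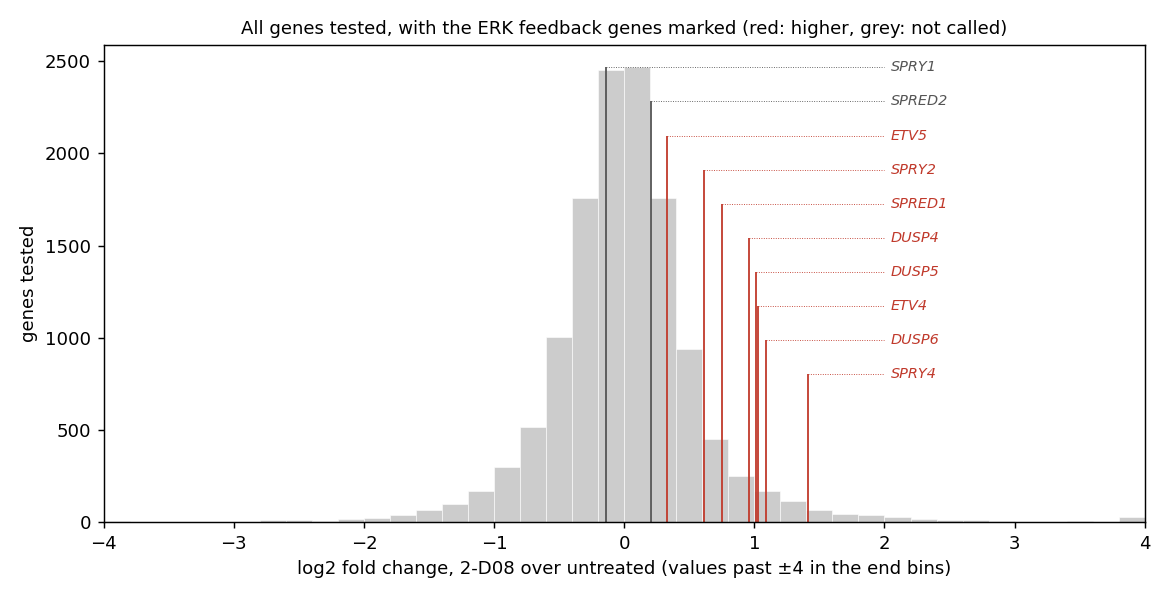
Histogram of log2 fold changes (2-D08-treated over untreated, x axis) for the 12906 genes tested (y axis, number of genes), with a line for each ERK feedback gene, red where called higher and grey where not called. The 8 called genes lie at 0.33 to 1.42, to the right of the median of all genes at -0.0033, while SPRY1 and SPRED2 lie within the bulk.

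Library totals were 14796702 and 31300635 counts in treated replicates 1 and 2, and 29586475 and 16628710 counts in untreated replicates 1 and 2. In treated replicate 2 and untreated replicate 1, 88.8% and 89.0% of the nonzero counts were even numbers, against 47.9% in treated replicate 1 and 48.4% in untreated replicate 2. The reason was not tested, and the pattern occurs once in each group. With their counts halved, the 4 totals ran from 14793244 to 16628710, and the same number of feedback genes, 8, was called higher. Whether the libraries of a group stem from separate cultures is not stated, so p-values here reflect library-to-library spread that may be technical.

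Of the smooth muscle markers, some were at or near 0 in this line and others were well expressed. DES, the muscle intermediate filament, had 0 counts in all 4 libraries, and MYH11, the smooth muscle myosin heavy chain, lay at 0.664 and 0.778 CPM in treated and 0.472 and 0.726 CPM in untreated libraries (CPM, counts scaled to library size with TMM factors). MYLK, CALD1 and SMTN had 122 and 134, 445 and 523, and 193 and 154 CPM in treated libraries. In untreated libraries they had 334 and 325, 641 and 680, and 120 and 110 CPM. Summed over 10 smooth muscle markers, TPM (a level corrected for transcript length and library size) was 364 to 391 in treated and 489 to 498 in untreated libraries. Of 8 tested, 1 marker was higher (SMTN) and 5 were lower (TAGLN, CNN1, MYLK, CALD1 and MYL9). For this and the marker counts that follow, the shares of all genes tested were 17.1% higher and 16.9% lower. Sums over the 5 immune markers were 152 to 175 TPM in treated and 110 to 113 TPM in untreated libraries, with 2 higher and 0 lower of 3 tested. CD68, a lysosomal protein abundant in macrophages, made up nearly all of that sum, at 148 and 172 TPM in treated and 111 and 109 TPM in untreated libraries, and the other 4 markers were each at or under 2.36 TPM. PTPRC, which marks all leukocytes, averaged 0.392 CPM in treated and 0.222 CPM in untreated libraries. Epithelial markers summed to 207 to 257 TPM in treated and 250 to 293 TPM in untreated libraries (0 higher and 2 lower of 4). The lower ones were KRT8 and KRT19, and KRT18, which made up most of that sum, was not called. KRT18 had 226 and 186 TPM in treated and 242 and 208 TPM in untreated libraries, while EPCAM and CDH1 were at or under 1.08 TPM. Endothelial markers summed to 0.54 to 0.87 TPM in treated and 0.51 to 0.59 TPM in untreated libraries (1 higher of 2). The part of these shifts in the feedback genes was not tested. In bulk RNA, a change in the number of cells that carry a transcript and a change in its amount per cell cannot be told apart.

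The genes lie on 10 different chromosomes (GENCODE release 29, GRCh38). DUSP4 is on chromosome 8 (29333064 to 29350668), DUSP5 on chromosome 10 (110497838 to 110511544) and DUSP6 on chromosome 12 (89347232 to 89353271). SPRY1 is on chromosome 4 (123396795 to 123403760), SPRY2 on chromosome 13 (80335976 to 80340951) and SPRY4 on chromosome 5 (142310427 to 142326455). SPRED1 is on chromosome 15 (38252326 to 38357249), SPRED2 on chromosome 2 (65310851 to 65432637), ETV4 on chromosome 17 (43527844 to 43579620) and ETV5 on chromosome 3 (186046308 to 186110318). All are protein-coding, and their merged exons cover 2615 bases for DUSP5 up to 8260 bases for SPRED1. An antisense gene, AC024909.2, shares 1875 exonic bases with DUSP6, or 40.5% of its exon length. How strand was handled in counting is not given, so reads of DUSP6 and of this antisense RNA may be mixed. Overlaps were small for ETV4 (68 bases with DHX8 on the opposite strand) and ETV5 (164 bases with DGKG on the same strand), and DUSP5 has 2 processed pseudogenes, DUSP5P1 and DUSP5P2.

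The 3 phosphatase genes rose together and by nearly the same factor. DUSP6, the cytoplasmic phosphatase that is selective for ERK and an immediate readout of its activity, stood at 78.9 and 77.8 CPM in treated libraries, against 35.2 and 38.4 CPM in untreated libraries. The treated pair was nearly identical and clear of the untreated pair. The log2 fold change was 1.09 ± 0.10 (SE, n = 2 per group; edgeR adjusted p = 4.17e-06), or 2.13-fold. DUSP4, a nuclear phosphatase of ERK and related kinases, had 129 and 121 CPM in treated libraries, against 66.3 and 62.4 CPM in untreated libraries, which is 0.96 ± 0.09 on the log2 scale (edgeR adjusted p = 5.95e-06). DUSP5, a nuclear phosphatase that also anchors inactive ERK there, had 44.1 and 39.0 CPM in treated libraries, against 21.3 and 19.6 CPM in untreated libraries, which is 1.01 ± 0.12 on that scale (edgeR adjusted p = 4.07e-05). In none of the 3 genes did the groups overlap, and the distances between libraries of a group were small beside the distance between groups.

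The makeup of the trio was similar in all 4 libraries. Compared per length, DUSP6 held 39.3% and 41.0% of the summed TPM of the 3 genes in treated libraries, against 39.6% and 41.5% in untreated libraries. DUSP4 held 33.8% and 33.7% in treated libraries, against 34.4% and 33.8% in untreated libraries, and DUSP5 held the remainder. The ratio of DUSP4 to DUSP6 was 0.86 and 0.823 in treated libraries, against 0.869 and 0.815 in untreated libraries, and for DUSP5 to DUSP6 it was 0.685 and 0.618 in treated libraries, against 0.658 and 0.595 in untreated libraries. Both ratios overlapped between the groups (exact permutation p of 1 and 0.667, two-sided, where 2 against 2 libraries cannot go below 0.333). The design is too small to show that the 3 responses are equal.

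The promoter of DUSP6 is shown because letters of a CIC form occur in it, and a link to its rise was not tested. RefSeq (GRCh38.p14) supplied windows of 300 bases, 250 before and 50 from an annotated start, for DUSP6, SPRY1, SPRY2, SPRY4, SPRED1 and SPRED2, or 6 of the 10 genes, some with several starts (10 windows). The DUSP6 window lies inside the GENCODE span of the gene, which runs to 89353271, so sequence before that outermost start was not searched. Both strands were searched for TGAATGAA and TGAATGGA (CIC), TGANTCA (AP-1, the FOS and JUN dimer), TGACGTCA (the cyclic AMP response element) and CCGGAAG (ETS factors). The CIC forms TCAATGAA and TCAATGGA were added after the windows had been read, so their matches here are no test. TCAATGGA occurs in 0.51% of 35116 windows of all genes and in 1 of the 10 here, DUSP6, where it is found on the reverse strand at bases 227 to 234 and again at bases 252 to 259. Capitals (TCCATTGA, its reverse complement) mark these matches in the window at chr12:89352452-89352751, minus strand, written 5′ to 3′.
DUSP6: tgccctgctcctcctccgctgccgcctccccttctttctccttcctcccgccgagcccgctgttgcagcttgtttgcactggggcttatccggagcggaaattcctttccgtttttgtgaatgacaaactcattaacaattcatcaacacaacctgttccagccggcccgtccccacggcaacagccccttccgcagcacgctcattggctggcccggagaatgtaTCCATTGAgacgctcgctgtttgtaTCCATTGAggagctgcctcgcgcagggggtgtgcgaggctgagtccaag
The other 3 CIC forms, present in 1.65%, 1.03% and 0.718% of all windows, and the cyclic AMP element (1.85%) matched none of the 10 windows. A match is a run of letters and does not show binding, and its absence from these windows says nothing about the factors.

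Among the Sprouty genes, SPRY4 had the largest fold change of the 10 genes, SPRY2 also rose, and SPRY1 was near the limit of detection. SPRY4, an inhibitor of receptor-to-RAF signalling, had 37.7 and 35.1 CPM in treated libraries, against 14.2 and 12.9 CPM in untreated libraries. Its log2 fold change was 1.42 ± 0.13 (SE, n = 2 per group; edgeR adjusted p = 3.37e-06), which ranked 258 of 12906 genes. SPRY2, which binds the adaptor GRB2 and the ubiquitin ligase CBL, had 54.0 and 51.1 CPM in treated libraries, against 35.0 and 33.4 CPM in untreated libraries (0.62 ± 0.11, edgeR adjusted p = 0.000652). Neither gene's groups overlapped. SPRY1, a further Sprouty inhibitor, had 9 and 26 counts in treated libraries, against 20 and 17 counts in untreated libraries. These are 0.598 and 0.843 CPM in treated and 0.674 and 1.03 CPM in untreated libraries, so the groups overlapped, and the log2 fold change of -0.14 had a 95% interval of -1.19 to 0.90 (edgeR adjusted p = 0.844). At this depth a change of SPRY1 by the factor seen for SPRY2 was not detectable in either direction.

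SPRY4 held a larger share of its family in treated cells. That share was 25.4% and 24.0% of the summed Sprouty TPM in treated libraries, against 16.2% and 14.8% in untreated libraries, while SPRY2 held 73.2% and 74.8% in treated libraries, against 82.3% and 82.4% in untreated libraries. The ratio of SPRY4 to SPRY2 was 0.347 and 0.32 in treated libraries, against 0.197 and 0.179 in untreated libraries. The groups did not overlap, and the exact permutation p was 0.333, the lowest that 2 against 2 libraries allow; 5 such ratios were computed within families. SPRY2 stayed the main Sprouty transcript in all 4 libraries.

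Windows of SPRY4, which rose most, and SPRY1, which did not pass, are shown for comparison. The SPRY4 window (chr5:142324198-142324497, minus strand) held none of the letters searched for. It lies inside the GENCODE span of the gene, which runs to 142326455, so sequence before the outermost start was not searched. The second SPRY1 window (chr4:123398136-123398435, plus strand) held the ETS letters CCGGAAG at bases 184 to 190, in capitals, which 10.3% of all windows hold. This window also lies inside the GENCODE span of its gene, which starts at 123396795.
SPRY4: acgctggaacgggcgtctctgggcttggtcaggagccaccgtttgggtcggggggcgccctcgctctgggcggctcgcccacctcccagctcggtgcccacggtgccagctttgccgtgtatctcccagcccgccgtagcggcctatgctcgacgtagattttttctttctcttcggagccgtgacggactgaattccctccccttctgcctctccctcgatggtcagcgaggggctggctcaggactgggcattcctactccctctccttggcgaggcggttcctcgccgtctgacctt
SPRY1: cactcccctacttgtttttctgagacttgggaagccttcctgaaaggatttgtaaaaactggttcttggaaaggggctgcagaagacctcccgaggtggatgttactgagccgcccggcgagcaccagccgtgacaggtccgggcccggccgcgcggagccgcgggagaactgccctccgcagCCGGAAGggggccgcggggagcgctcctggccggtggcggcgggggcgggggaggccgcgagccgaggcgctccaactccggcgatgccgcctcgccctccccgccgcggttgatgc

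Of the 2 Spred genes SPRED1 rose and SPRED2 did not pass the test. SPRED1, which brings the RAS inactivator neurofibromin to the membrane, had 241 and 268 CPM in treated libraries, against 143 and 160 CPM in untreated libraries. The difference was 0.75 ± 0.10 on the log2 scale (SE, n = 2 per group; edgeR adjusted p = 7.3e-05), with no overlap between the groups. SPRED2, its close relative with the same kind of role, had 90.6 and 88.5 CPM in treated libraries, against 77.2 and 78.3 CPM in untreated libraries. The groups did not overlap here either, but the difference was small, 0.20 ± 0.09 on the log2 scale (1.15-fold), and did not pass (edgeR adjusted p = 0.101). SPRED1 held 60.7% and 63.6% of the summed Spred TPM in treated libraries, against 50.9% and 53.1% in untreated libraries. The ratio of SPRED1 to SPRED2 was 1.55 and 1.74 in treated libraries, against 1.04 and 1.13 in untreated libraries, with no overlap (exact permutation p = 0.333, the lowest possible).

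SPRED2 has a second RefSeq start inside the gene, and its window (chr2:65366729-65367028, minus strand) held the AP-1 letters TGANTCA at 2 places, bases 245 to 251 and 285 to 291, shown in capitals. The last 50 bases of the window, those from the start on, were not found in a GENCODE 29 transcript of SPRED2, unlike those of the DUSP6, SPRY4 and SPRY1 windows shown. The AP-1 letters occur in 7.71% of all windows. Of the 10 windows here this was the only one to hold them.
SPRED2: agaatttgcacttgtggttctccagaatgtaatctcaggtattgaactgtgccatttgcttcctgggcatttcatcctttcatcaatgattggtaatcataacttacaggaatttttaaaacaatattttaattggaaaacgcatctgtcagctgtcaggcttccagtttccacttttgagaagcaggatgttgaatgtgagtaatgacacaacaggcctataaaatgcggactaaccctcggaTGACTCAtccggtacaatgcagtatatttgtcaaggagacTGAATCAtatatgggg

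ETV4 and ETV5, ETS transcription factors of the PEA3 group that ERK both induces and activates, both rose. ETV4 had 24.9 and 21.1 CPM in treated libraries, against 11.5 and 10.8 CPM in untreated libraries, or 1.03 ± 0.15 on the log2 scale (SE, n = 2 per group; edgeR adjusted p = 0.000191). ETV5 had 91.5 and 90.0 CPM in treated libraries, against 72.7 and 71.8 CPM in untreated libraries, or 0.33 ± 0.09 on that scale (edgeR adjusted p = 0.0138). The groups did not overlap in either gene. Leaving out untreated replicate 1 or 2 ended the call of ETV5 (adjusted p of 0.182 and 0.191), as did limma on log2(TPM + 1) and log2(TPM + 0.1) (0.0605 and 0.0585) and a term for the even-count pattern (0.0664). Its size changed less, from 0.31 to 0.47 over all 15 alternatives. The ratio of ETV4 to ETV5 was 0.48 and 0.349 in treated libraries, against 0.276 and 0.272 in untreated libraries, with no overlap (exact permutation p = 0.333, the lowest possible), and ETV5 kept the larger share of the pair, 67.6% and 74.1% in treated libraries, against 78.4% and 78.6% in untreated libraries.

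**Figure D2:**
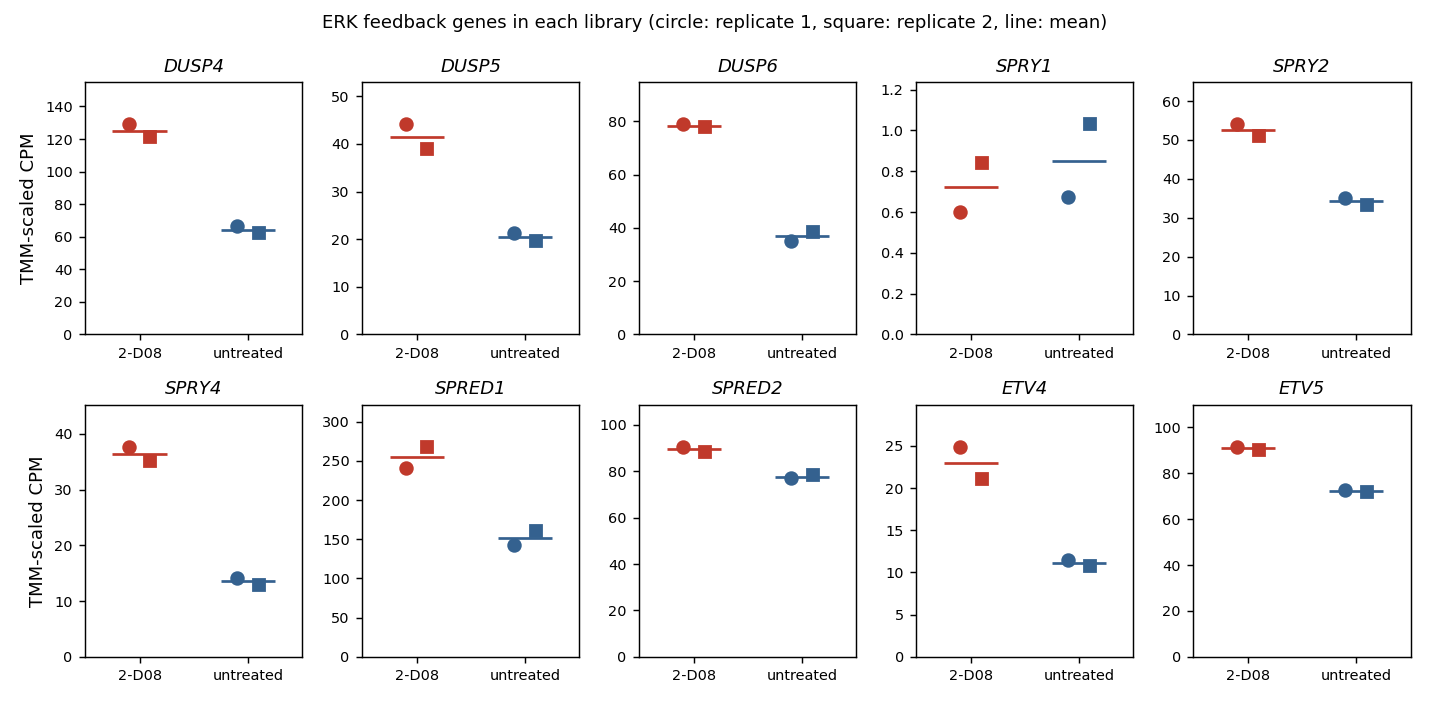
TMM-scaled CPM (y axis, from 0, own scale per gene) of each ERK feedback gene in the 2-D08-treated and untreated libraries (x axis), with circles for replicate 1, squares for replicate 2 and lines for group means. Treated and untreated libraries are apart in every gene but SPRY1, which lies at or under 1.03 CPM throughout.

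**Figure D3:**
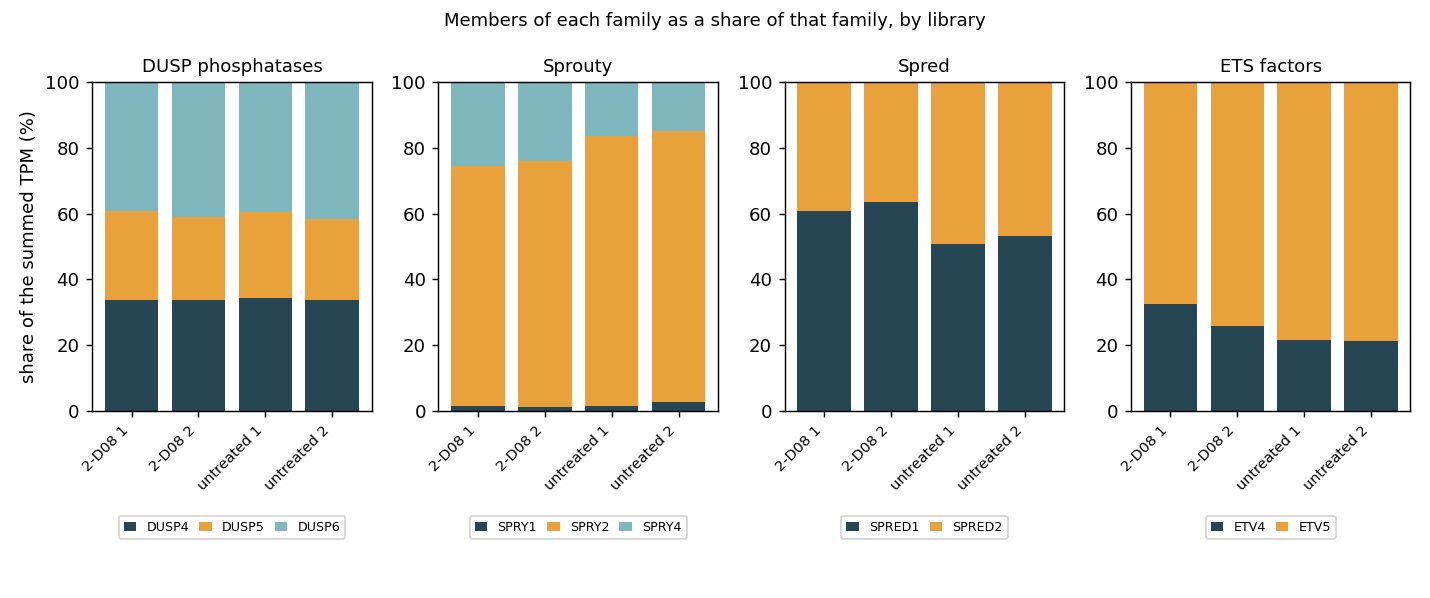
Share (y axis, % of the summed TPM of a family) of each member in the 2-D08-treated and untreated libraries (x axis) for the DUSP, Sprouty, Spred and ETS genes. The DUSP bars are alike in all 4 libraries, while SPRY4, SPRED1 and ETV4 hold larger shares in both treated libraries.

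Levels can be ordered across genes only per length, on the TPM scale. In treated libraries SPRED1 (46.0 and 48.8 TPM), ETV5 (38.9 and 44.9 TPM) and DUSP6 (36.5 and 34.2 TPM) led, and their ranges did not overlap. SPRY2 (33.2 and 30.1 TPM), DUSP4 (31.3 and 28.2 TPM) and SPRED2 (29.7 and 28.0 TPM) followed with ranges that overlapped from each to the next. DUSP5 (24.97 and 21.1 TPM), ETV4 (18.7 and 15.7 TPM), SPRY4 (11.5 and 9.63 TPM) and SPRY1 (0.64 and 0.48 TPM) came after them without overlap. In untreated libraries ETV5 (31.4 and 28.95 TPM) and SPRED1 (28.0 and 30.1 TPM) overlapped at the top, then came SPRED2 (27.0 and 26.5 TPM), SPRY2 (22.3 and 20.6 TPM) and DUSP6 (19.0 and 18.6 TPM). DUSP4 (16.5 and 15.2 TPM), DUSP5 (12.5 and 11.1 TPM), ETV4 (8.66 and 7.86 TPM), SPRY4 (4.40 and 3.69 TPM) and SPRY1 (0.38 and 0.70 TPM) completed the order. The lower end, from DUSP5 down, was the same in both groups. SPRED2 stood lower in the order of treated cells, where DUSP6, SPRY2 and DUSP4 had higher means. Summed over the 10 genes, the level was 261 to 271 TPM in treated and 163 to 170 TPM in untreated libraries.

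Because the even-count pattern falls once in each group, the change can also be read within each counting pattern. Between treated replicate 2 and untreated replicate 1, the libraries of mostly even counts, log2 differences in CPM were 1.30 for SPRY4, 1.14 for DUSP6, 0.87 for DUSP4, DUSP5 and ETV4, 0.91 for SPRED1, 0.55 for SPRY2 and 0.31 for ETV5. Between treated replicate 1 and untreated replicate 2 they were 1.55 for SPRY4, 1.04 for DUSP6, 1.05 for DUSP4, 1.17 for DUSP5, 1.20 for ETV4, 0.59 for SPRED1, 0.69 for SPRY2 and 0.35 for ETV5. SPRED2 differed by 0.20 and 0.21. In these genes both treated libraries lay above both untreated ones, so any such pairing had to give a rise. The pairs therefore show only how its size varied. SPRY1 went opposite ways, 0.32 and -0.78.

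**Figure D4:**
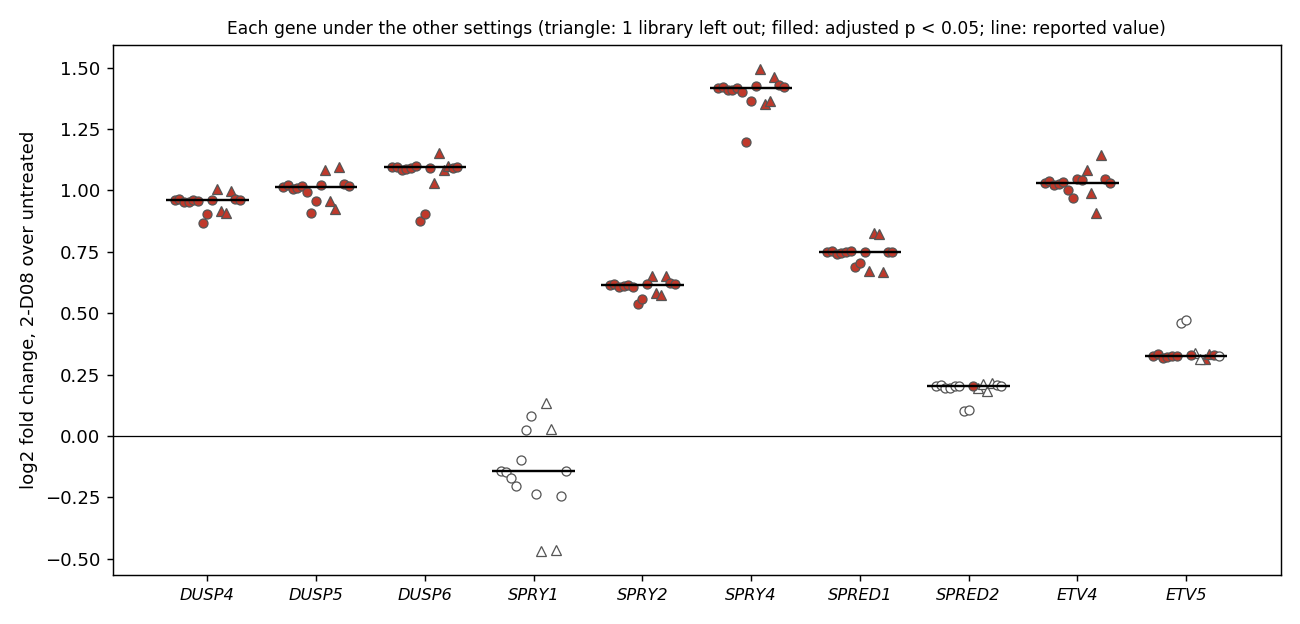
Log2 fold change (y axis, 2-D08-treated over untreated) of each ERK feedback gene (x axis) as reported (line) and under the other settings, with triangles where 1 library was left out and filled symbols at an adjusted p under 0.05. All settings keep DUSP4, DUSP5, DUSP6, SPRY2, SPRY4, SPRED1 and ETV4 above 0 and past the threshold, while ETV5 has open symbols and SPRY1 falls on either side of 0.

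The genes around the feedback loop were then described from 5 lists that cover the kinase relay, other brakes, other DUSPs, other ERK output genes and other ETS factors. The lists were chosen with earlier results of these data known. Of 70 genes tested with edgeR, 20 were higher and 11 lower in treated cells, with a median log2 fold change of 0.02. Of all genes tested, 17.1% were higher and 16.9% lower, so the number of lower genes in the lists was near the background. Calls over all genes also changed in number when a library was left out or TPM was used. Such changes in a list are not by themselves a trait of that list. The number called also changed with the library left out: 16 genes were called without untreated replicate 1 and 18 without untreated replicate 2, and 13 on either TPM scale. Of the 26 genes named from these lists, 12 lost their call when some library was left out, and 0 changed sign in any of the 15 alternatives. With limma on log2(TPM + 1), 13 of the 26 lost theirs, and with DESeq2 2 did, DUSP8 and DUSP10.

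Most genes of the relay did not pass the test. Of all genes tested, 17.1% were higher and 16.9% lower. Of 23 genes from adaptors through RAS, RAF and MEK to ERK and its kinase substrates, 2 were higher and 3 lower. Their median was -0.10. The lower genes numbered 7 without treated replicate 1 and 8 without treated replicate 2, and the higher genes 1 without untreated replicate 1 or 2 and 0 on either TPM scale. MAP2K1, which encodes the ERK activator MEK1, had 101 and 83.0 CPM in treated libraries, against 64.3 and 57.4 CPM in untreated libraries (0.59 ± 0.11, edgeR adjusted p = 0.00121), a call lost on both TPM scales (0.0801 and 0.0771). MAPK3, which encodes ERK1, had 16.5 and 13.1 CPM in treated libraries, against 22.5 and 22.7 CPM in untreated libraries (-0.62 ± 0.15, edgeR adjusted p = 0.00577). RPS6KA2, a ribosomal S6 kinase that ERK activates, fell by 1.22 on the log2 scale, to 12.4 and 13.9 CPM in treated libraries, against 33.7 and 27.8 CPM in untreated libraries, with edgeR adjusted p = 3.18e-05. MKNK2, an ERK-activated kinase of the translation factor eIF4E, had 58.9 and 53.6 CPM in treated libraries, against 95.2 and 81.5 CPM in untreated libraries (-0.66 ± 0.11, edgeR adjusted p = 0.000388). The adaptor GRB2 was higher by 0.29 (edgeR adjusted p = 0.0242), and its fold change was 0.28 and 0.30 when untreated replicate 1 or 2 was left out, where it missed the threshold (0.304 and 0.225). RNA levels do not report the activity of these kinases.

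Other brakes of RAS and RAF mostly did not pass the test. Of 14 tested, 1 was higher and 3 lower (17.1% and 16.9% of all genes tested), with a median of -0.05. Without untreated replicate 1 or 2 these were 0 higher and 1 lower, without treated replicate 1 they were 2 higher and 4 lower, and on either TPM scale 0 of each. RASA1, a GTPase-activating protein for RAS, had 147 and 162 CPM in treated libraries, against 223 and 235 CPM in untreated libraries (-0.57 ± 0.09, edgeR adjusted p = 0.000435), a call lost on both TPM scales (0.0582 and 0.0559). RASAL2, a protein of the same kind, and LZTR1, which promotes RAS degradation, were lower by 0.39 and 0.41, and PAQR3, which holds RAF at the Golgi, was higher by 0.37. For RASAL2, LZTR1 and PAQR3 the adjusted p was 0.104, 0.287 and 0.141 when untreated replicate 1 was left out, and 0.0791, 0.0595 and 0.152 when untreated replicate 2 was. LZTR1 also missed the threshold in the fit lacking treated replicate 2 (0.057).

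Other dual-specificity phosphatases were split, 5 higher and 3 lower of 9 tested (17.1% and 16.9% of all genes tested), with a median of 0.34. They numbered 2 higher and 1 lower without untreated replicate 1, and 1 of each without untreated replicate 2 and on either TPM scale. DUSP14 was the firmest, at 39.1 and 36.4 CPM in treated libraries, against 23.1 and 22.6 CPM in untreated libraries (0.72 ± 0.12, edgeR adjusted p = 0.000412). DUSP7, the cytoplasmic ERK phosphatase most like DUSP6, rose by 0.49 (edgeR adjusted p = 0.0057), DUSP10, which acts on the stress kinases p38 and JNK, by 0.65 (0.0188), and DUSP3 by 0.46 (0.00277). DUSP1, named after its value had been seen, was the fifth, at 0.34 and just past the threshold (edgeR adjusted p = 0.0484). DUSP16 and DUSP8, which also act on JNK and p38, were lower by 0.57 (edgeR adjusted p = 0.00172) and 0.80 (0.0163), and DUSP22 by 0.47 (0.0134). Leaving out untreated replicate 1 or 2 ended the calls of DUSP7, DUSP10, DUSP8 and DUSP22, while their log2 fold changes stayed near those above. In that order they were 0.45, 0.72, -0.82 and -0.51 without untreated replicate 1. Without untreated replicate 2 they were 0.51, 0.59, -0.79 and -0.44. Such a fit has only the treated pair to take its spread from, and why the calls ended was not tested. DUSP3 missed the threshold in the fit lacking untreated replicate 2 (0.101), and DUSP10 in that lacking treated replicate 2 (0.0712). On log2(TPM + 1), DUSP16 was lower by only 0.20 (adjusted p = 0.435) and DUSP8 by 0.37 (0.415).

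ERK output genes outside the feedback loop were more often higher than lower. Of 11 tested, 6 were higher and 1 lower (17.1% and 16.9% of all genes tested), with a median of 0.62. The lower genes numbered 0 without untreated replicate 1 and 2 without treated replicate 1, and on either TPM scale 4 were higher and 0 lower. FOS, a subunit of AP-1, had 26.9 and 23.3 CPM in treated libraries, against 2.56 and 2.06 CPM in untreated libraries (3.41 ± 0.19, edgeR adjusted p = 3.98e-08). HBEGF, a growth factor that activates the EGF receptor, had 56.0 and 63.0 CPM in treated libraries, against 19.6 and 19.1 CPM in untreated libraries (1.62 ± 0.12, edgeR adjusted p = 4.15e-07). CCND1, which encodes cyclin D1, had 554 and 590 CPM in treated libraries, against 253 and 247 CPM in untreated libraries (1.20 ± 0.09, edgeR adjusted p = 5.61e-07). FOSL1, an AP-1 subunit stabilised by ERK, had 321 and 308 CPM in treated libraries, against 169 and 156 CPM in untreated libraries (0.95 ± 0.09, edgeR adjusted p = 5e-06). In these 4 genes the groups were far apart.

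Some ERK-responsive genes were lower or did not pass the test. EGR1, an early response factor, had 50.8 and 52.0 CPM in treated libraries, against 70.7 and 65.1 CPM in untreated libraries (-0.40 ± 0.10, edgeR adjusted p = 0.00716). It missed the threshold in the fit lacking untreated replicate 1 (0.196) and on both TPM scales (0.0618 and 0.0604). PHLDA1, which is often scored together with DUSP6 and SPRY4 as ERK output, had 730 and 775 CPM in treated libraries, against 778 and 778 CPM in untreated libraries (-0.05, 95% interval -0.23 to 0.14, edgeR adjusted p = 0.695). MYC had 179 and 167 CPM in treated libraries, against 203 and 199 CPM in untreated libraries (-0.21, edgeR adjusted p = 0.0829), and passed in 2 of 15 alternatives. EPHA4 and IER3 did not pass either, at 0.73 and 0.23 (edgeR adjusted p = 0.0637 and 0.0829). These 4 genes were singled out after their values had been seen.

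Of 13 other ETS factors and CIC partners, 6 were higher and 1 lower (17.1% and 16.9% of all genes tested), with a median of 0.19. The higher genes numbered 2 (ETS2 and ELK3) without untreated replicate 1, 4 without untreated replicate 2 and 3 on either TPM scale, and the lower genes 2 without treated replicate 1 or 2. ETS2 (67.0 and 59.8 CPM in treated libraries, against 41.9 and 42.7 CPM in untreated libraries) rose by 0.58, ETS1 and ELK3 by 0.50 each, and ETV1, the other PEA3 factor, by 0.46. ETS1 and ETV1 missed the threshold in the fit lacking untreated replicate 1 (0.0571 and 0.0539), and on log2(TPM + 1) ETV1 was higher by only 0.26 (0.207). ATXN1, whose protein works with CIC, fell to 69.7 and 70.7 CPM in treated libraries, against 132 and 135 CPM in untreated libraries (-0.93 ± 0.09, edgeR adjusted p = 5.95e-06). ATXN1L, the other CIC partner listed and named after its value had been seen, was higher by 0.32 (edgeR adjusted p = 0.0198). It had 72.2 and 72.8 CPM in treated libraries, against 59.0 and 57.2 CPM in untreated libraries, and its TPM overlapped between the groups. CIC itself, singled out after its value had been seen, had 49.6 and 41.6 CPM in treated libraries, against 61.4 and 51.6 CPM in untreated libraries, and did not pass (-0.32, edgeR adjusted p = 0.057), though it passed in 6 of 15 alternatives.

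**Figure D5:**
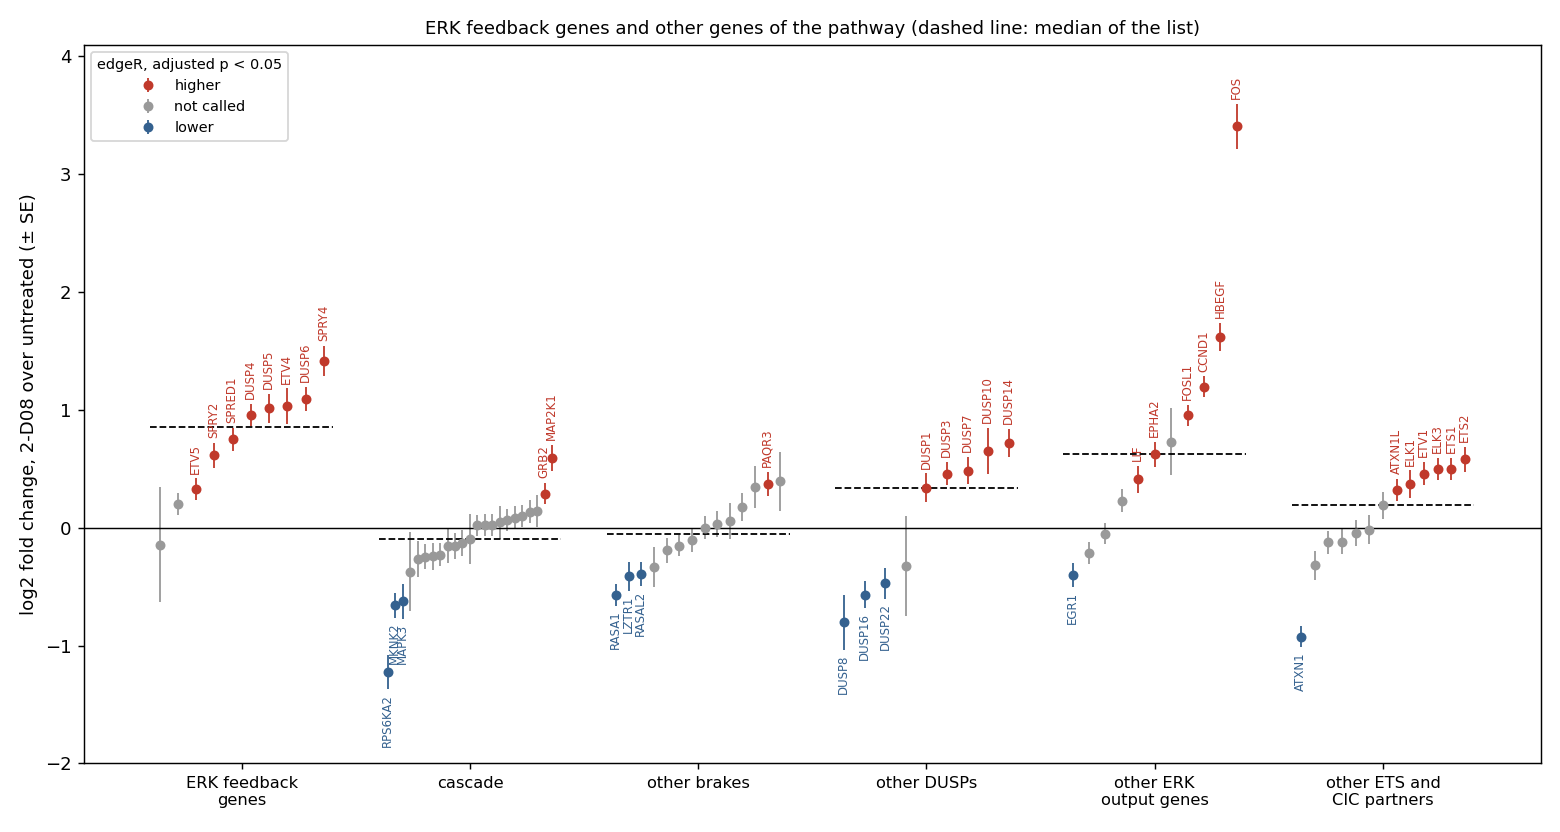
Log2 fold change with SE (y axis, 2-D08-treated over untreated) for the genes tested in the ERK feedback set and 5 other lists (x axis), red where called higher, blue where lower and grey where not called, with a dashed line at each median. Medians are 0.86 for the feedback genes, -0.10 for the cascade, -0.05 for other brakes, 0.34 for other DUSPs, 0.62 for other output genes and 0.19 for other ETS factors and CIC partners.

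Genes outside all lists were ranked by how close their profile over the 4 libraries lay to the median profile of the feedback genes. Likeness was the Euclidean distance of centred log2 CPM, among 10419 genes averaging 5 CPM or more. TM4SF1 (distance 0.019), EMC7 (0.0263), KYNU (0.0349), EED (0.0454) and SLBP (0.049) lay closest. TM4SF1, a cell surface protein, had 477 and 477 CPM in treated libraries, against 261 and 266 CPM in untreated libraries. With 4 libraries in 2 groups, such likeness says little more than that the fold change and the spread were similar.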

How the data were processed

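The authors deposited raw counts per gene in whole numbers, and TPM values; one more table, named as normalised counts but on a log2-like scale, was not used here. The submitters' processing notes name STAR 2.7.8a, cutadapt 3.4, DESeq2 and GRCh38. No source used here gives the counter, its handling of strand or the annotation release. Per the labels, total RNA was depleted of ribosomal RNA. TPM of the 19381 listed genes summed to 741705 and 716934 in treated libraries, against 761770 and 745964 in untreated libraries. The values were not rescaled to a common total here.

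The test was run with edgeR 4.0.16 under R 4.3.3. filterByExpr (minimum count 10) kept 12906 genes, TMM factors were applied, and treated libraries were compared with untreated ones by the robust quasi-likelihood test (two-sided) with Benjamini-Hochberg adjustment over all genes tested, threshold 0.05. SEs come from the F statistic. DESeq2 1.42.0 and limma 3.58.1 were alternatives, with other scalings and filters, log2(TPM + 1) and log2(TPM + 0.1), a replicate block, each library left out, and halved counts where over 60% were even; the counting pattern as a term was added after seeing the data. The script was tested on simulated data. Members, lists and tests were chosen with earlier results of these data known. All 10 members are named, with up to 4 called genes per list and direction (mean of at least 1 CPM, largest change) and the 5 closest profiles. Positions come from GENCODE 29, promoters from RefSeq.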

Additional observations from a re-analysis of the deposited data

How the results depend on the processing

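Over the 15 alternatives, 7 to 9 feedback genes were called higher and 0 lower. DUSP4, DUSP5, DUSP6, SPRY2, SPRY4, SPRED1 and ETV4 stayed past the threshold in all 15, with adjusted p of at most 0.0391, and ETV5 in 10. SPRY1 turned positive on log2(TPM + 1) and log2(TPM + 0.1) (0.025 and 0.080), and with single libraries left out it ran from -0.47 to 0.13. The listed pathway genes called numbered 13 on both TPM scales and 16 to 40 with a library left out. All genes called numbered 1598 and 1608 on the TPM scales and 1866 to 6077 with a library left out; the cause was not tested. A fit without a library assumes that the lone library varies like the other group. The treated pair was less alike than the untreated pair: scatter between its libraries, as chi-square over degrees of freedom, came to 13.87, against 4.63. The labels do not say that equal replicate numbers mark a pairing; deviations of libraries with equal numbers correlated at 0.157 across 12906 genes. In the fit with a replicate block, 6239 genes were called, among them 9 feedback genes, SPRED2 added (adjusted p = 0.0214), and pathway genes numbered 40. Depth limits SPRY1, the 1 member at 26 counts or fewer per library.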
